A study of Mus musculus with 6 samples.

Results

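The interferon-inducible GTPases described here are 10 genes, chosen by name: the guanylate-binding protein genes Gbp2, Gbp3, Gbp4, Gbp5, Gbp6 and Gbp7, and the immunity-related GTPase genes Iigp1, Igtp, Irgm1 and Irgm2. They were measured by RNA sequencing of whole snap-frozen kidneys of male mice, 10 of 56923 gene identifiers in the count tables. All 10 passed the filter on low counts, which left 18273 genes to test. The series holds 6 kidneys in 2 groups of 3. Every mouse carried floxed Pkd1, the gene of polycystin-1 that is mutated in most autosomal dominant polycystic kidney disease, and a tetracycline-dependent Cre transgene. Controls (Pkd1flox/flox.Tet-O-Cre) lacked the activator that switches Cre on, and the knockout group, called Pkd1 KO below (Pkd1flox/flox.Pax8rtTA.Tet-O-Cre), carried it under the Pax8 promoter, which is active in kidney tubule cells. Both groups drank doxycycline (2 mg/ml in 5% sucrose) for 14 days, from postnatal day 28 to day 42, and kidneys were taken at 10 weeks. Cells without Pax8 keep an intact Pkd1 gene in both groups, and a whole kidney mixes them with tubule cells, so throughout, fewer cells of a type and less RNA per cell cannot be told apart.

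Interferons, above all interferon gamma from T and NK cells, switch on large GTPases that defend the inside of a cell. Guanylate-binding proteins (GBPs) assemble on pathogen membranes and on free lipopolysaccharide, and help caspase-4 (caspase-11 of the mouse) and the AIM2 sensor to start inflammasome signalling. Among immunity-related GTPases (IRGs), effectors such as Iigp1 load onto the vacuoles of intracellular parasites, while the regulators Irgm1, Irgm2 and Igtp (also called Irgm3) guard the cell's own membranes and hold the effectors inactive. Many cell types can express these genes under interferon, immune, endothelial and epithelial cells among them.

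Libraries held 45020173 to 62983791 gene counts. Control 1 was sequenced in 2 runs, summed to 1 library. The names of the deposited tables carry a code (NG and a number) that the 3 control libraries share. The 3 Pkd1 KO libraries share a different code. The labels do not say what the code stands for. Any effect that goes with it and that of genotype cannot be told apart. Nothing in the labels says more of the animals than that samples are numbered kidneys, so p-values measure the spread between these samples. Pkd1 itself stood, in CPM (counts scaled to the library total and edgeR's TMM factors), at 30.01, 46.4 and 23.6 in the controls and 8.77, 9.003 and 10.01 in the knockouts (log2 fold change −1.85 ± 0.24 SE, edgeR adjusted p = 0.00234, and −0.53 in the fit with offsets described below, adjusted p = 0.0112). Markers of the labelled tissue were present: Slc34a1 of the proximal tubule, for example, stood at 5243, 5561 and 3246 CPM in controls and 2056, 1761 and 1749 in knockouts.

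Of the 10 GTPase genes, 4 rose in Pkd1 KO kidneys: Gbp4, Iigp1, Gbp2 and Gbp3, by 1.46-fold to 2.55-fold. The other 6 were not called, and the 3 regulators Irgm1, Igtp and Irgm2 had values below 0 (log2 fold changes −0.44, −0.38 and −0.13). Calls are edgeR quasi-likelihood tests at a Benjamini-Hochberg adjusted p under 0.05, adjusted over all genes tested. By this rule 46.9% of all tested genes were called, 22.7% higher and 24.2% lower, so 4 of 10 higher is to be read against 22.7%. None of the 10 was called lower by edgeR. At an unadjusted p under 0.05 the count of lower members was 1, and DESeq2 called 1 lower, Irgm1 in both cases. The median log2 fold change over the 10 genes was 0.32, beside 0.03 over all tested genes. The groups did not overlap for the 4 called members, while 61.2% of all tested genes had groups that did not overlap, 31.2% higher and 30.0% lower in Pkd1 KO.

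A second fit took out each library's trend on the length and GC content of genes as an offset. It covered 17785 genes, and all 10 members. It called 15.0% of genes higher and 19.5% lower, and among the members only Gbp4 higher and Igtp and Irgm1 lower. The call of Gbp4 thus held with and without offsets, those of Gbp2, Gbp3 and Iigp1 did not, and the 2 regulators were called only with them. The median of the members was 0.23 with offsets, beside −0.05 over all genes. The source of these trends was not tested.

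Promoter sequences were available for 7 members from RefSeq (build GRCm38.p6). They are shown because, without offsets, 2 of these genes rose and 5 were not called. All 7 hold the core of the interferon-stimulated response element (ISRE), to which the type I interferon complex and the IRF factors bind. Each line runs 5′ to 3′ and ends at the last base before the start site, and capitals mark motif matches. The ISRE core was searched on both strands as GAAA, any 2 bases and GAAA, and the gamma-activated site (GAS), an element of interferon gamma responses, as TTCNNNGAA, which reads the same on both strands.
Gbp2 (chr3:142620553-142620662, plus strand): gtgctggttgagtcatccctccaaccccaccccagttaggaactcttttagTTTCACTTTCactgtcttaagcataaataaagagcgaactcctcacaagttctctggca
Gbp3 (chr3:142559934-142560043, plus strand): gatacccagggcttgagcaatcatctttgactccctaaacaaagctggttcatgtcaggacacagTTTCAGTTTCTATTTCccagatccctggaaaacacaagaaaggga
Gbp5 (chr3:142496754-142496933, plus strand): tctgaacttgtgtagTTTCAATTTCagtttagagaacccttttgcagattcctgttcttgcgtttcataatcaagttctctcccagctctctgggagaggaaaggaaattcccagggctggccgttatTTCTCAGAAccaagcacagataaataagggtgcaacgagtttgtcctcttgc
Gbp7 (chr3:142530226-142530335, plus strand): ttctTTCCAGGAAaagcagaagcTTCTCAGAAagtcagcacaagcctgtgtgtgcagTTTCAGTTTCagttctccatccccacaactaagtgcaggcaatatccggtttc
Igtp (chr11:58199446-58199555, plus strand): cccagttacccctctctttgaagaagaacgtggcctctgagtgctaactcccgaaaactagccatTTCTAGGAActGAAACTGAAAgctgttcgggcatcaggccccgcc
Irgm1 (chr11:48871421-48871530, minus strand): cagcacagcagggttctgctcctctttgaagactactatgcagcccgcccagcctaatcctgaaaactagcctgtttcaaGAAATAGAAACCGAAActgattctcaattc
Irgm2 (chr11:58214867-58214976, plus strand): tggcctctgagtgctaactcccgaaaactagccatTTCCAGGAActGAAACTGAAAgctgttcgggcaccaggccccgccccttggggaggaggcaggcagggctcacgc

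An ISRE core lay within the window of 250 bases before to 50 after the start site in 7 of 7 member genes, against 3.44% of all 32851 promoters in the table. In Gbp2 it ran from −59 to −50, in Gbp7 from −53 to −44, in Igtp from −34 to −25 and in Irgm2 from −64 to −55. Gbp3 (−45 to −36 and −39 to −30) and Irgm1 (−30 to −21 and −24 to −15) each held 2 overlapping copies, seen as 1 longer run of capitals. The match of Gbp5 lay farther out, from −165 to −156. A second annotated start of Gbp3 had no match in its window. GAS matches were present in 4 of the 7 genes, against 8.30% of all promoters. These 4 were Gbp5, Gbp7, Igtp and Irgm2, none of which was called without offsets. Gbp5 (−245 to −237, outside the printed stretch, and −52 to −44) and Gbp7 held 2 matches each. Gbp2 and Gbp3, called higher without offsets, held no GAS letters in this window, and neither did Irgm1. With offsets Gbp2 (0.35), Gbp3 (0.15), Gbp5 (0.39), Gbp7 (−0.37) and Irgm2 (−0.42) were not called, and Igtp (−0.80) and Irgm1 (−0.54) were called lower. In Igtp and Irgm2 the GAS and the ISRE core stood side by side, 2 bases apart. Of 9 other GBP and IRG family genes with a promoter sequence, Irgq included, 5 held an ISRE core and 3 a GAS. Those with a GAS were Gm12250 and Tgtp2, both called higher, and Tgtp1, which was not called. Ifi47 and Gbp2b, also called higher, held no GAS, and Ifi47 held no ISRE core either. With offsets Ifi47 kept its call, and Gm12250, Tgtp2 and Gbp2b did not. The rest held no GAS and were not called higher. A match is a string of letters, not a measured binding site, and no relation between motif and change was tested.

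**Figure D1:**
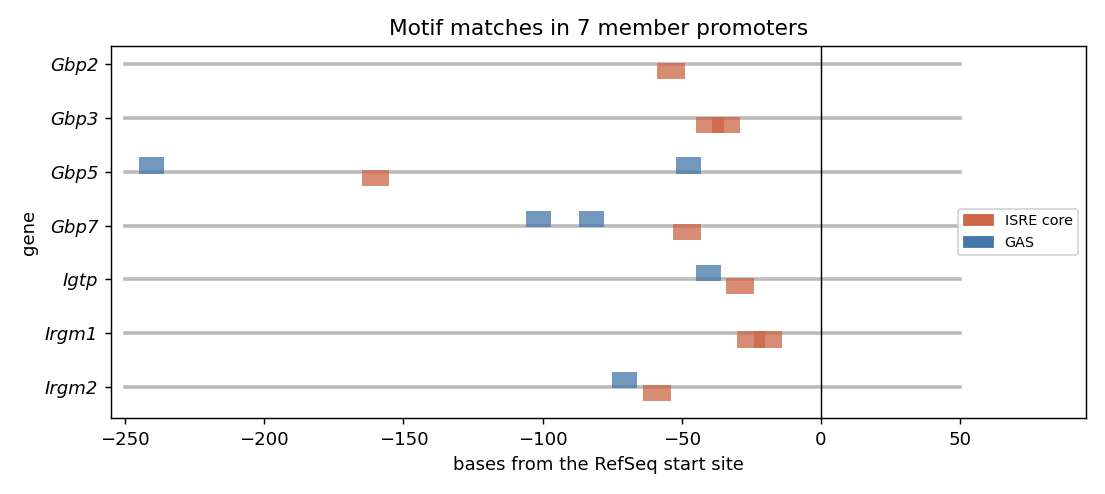
Positions of motif matches in the promoters of 7 member genes; the x axis is the distance in bases from the RefSeq start site, orange bars are ISRE cores and blue bars GAS matches. All 7 genes hold an ISRE core, and Gbp5, Gbp7, Igtp and Irgm2 also hold a GAS.

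Gbp4, which joins other GBPs on vacuoles of intracellular pathogens, had the largest change of the 10 genes. It stood at 7.57, 7.11 and 9.67 CPM in controls and at 14.5, 24.01 and 23.4 in knockouts. Every Pkd1 KO library lay above every control, the nearest pair being control 3 and Pkd1 KO 1. The log2 fold change was 1.35 ± 0.23 (SE, n = 3 each, edgeR adjusted p = 0.00305), with group means of 8.12 ± 1.37 and 20.6 ± 5.32 CPM (SD). With offsets it was 1.19 (adjusted p = 0.00326), and the call held in every fit that left out 1 library.

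Gbp2 encodes a prenylated GBP that attaches to membranes and restricts bacteria and parasites. Control values were 13.9, 9.51 and 13.9 CPM, and Pkd1 KO values 17.2, 25.4 and 22.997 CPM. The ranges were apart, with Pkd1 KO 1 again nearest to the controls. The log2 fold change was 0.81 ± 0.21 (edgeR adjusted p = 0.0127), and 0.35 with offsets (adjusted p = 0.127). Without Pkd1 KO 2 the value was 0.69 and the call ended (adjusted p = 0.0628).

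Gbp3 lies in the same gene cluster as Gbp2 and Gbp7. It had 10.4, 7.89 and 10.9 CPM in controls and 12.1, 14.8 and 15.6 in knockouts, groups that were apart by little more than 1 CPM. The log2 fold change of 0.54 ± 0.18 passed narrowly (edgeR adjusted p = 0.0352) and was 0.15 with offsets (adjusted p = 0.442). This call ended in 4 of the 6 fits that left out a library, with adjusted p-values of 0.0798 without control 1, 0.0777 without control 2, 0.115 without Pkd1 KO 2 and 0.131 without Pkd1 KO 3.

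Gbp5, Gbp6 and Gbp7 were not called. Gbp5, a prenylated GBP tied to inflammasome assembly, was low in each library, at 3.65, 3.06 and 3.52 CPM in controls and 3.34, 4.15 and 3.49 in knockouts. The groups overlapped (log2 fold change 0.10, 95% interval −0.33 to 0.53, adjusted p = 0.679), so a change of up to 0.53 on the log2 scale is not excluded. Gbp7, which supports assembly of the phagocyte oxidase, was more abundant but as level, at 16.1, 14.6 and 14.3 against 12.1, 18.4 and 16.7 CPM (log2 fold change 0.069, interval −0.34 to 0.48, adjusted p = 0.769). Its value turned to −0.37 with offsets (adjusted p = 0.0939). Gbp6 varied most between libraries, with 4.23, 2.06 and 2.603 CPM in controls and 3.27, 7.101 and 4.61 in knockouts. Control 1 exceeded Pkd1 KO 1, and the interval ran from −0.026 to 1.54 (log2 fold change 0.75 ± 0.34, adjusted p = 0.1).

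**Figure D2:**
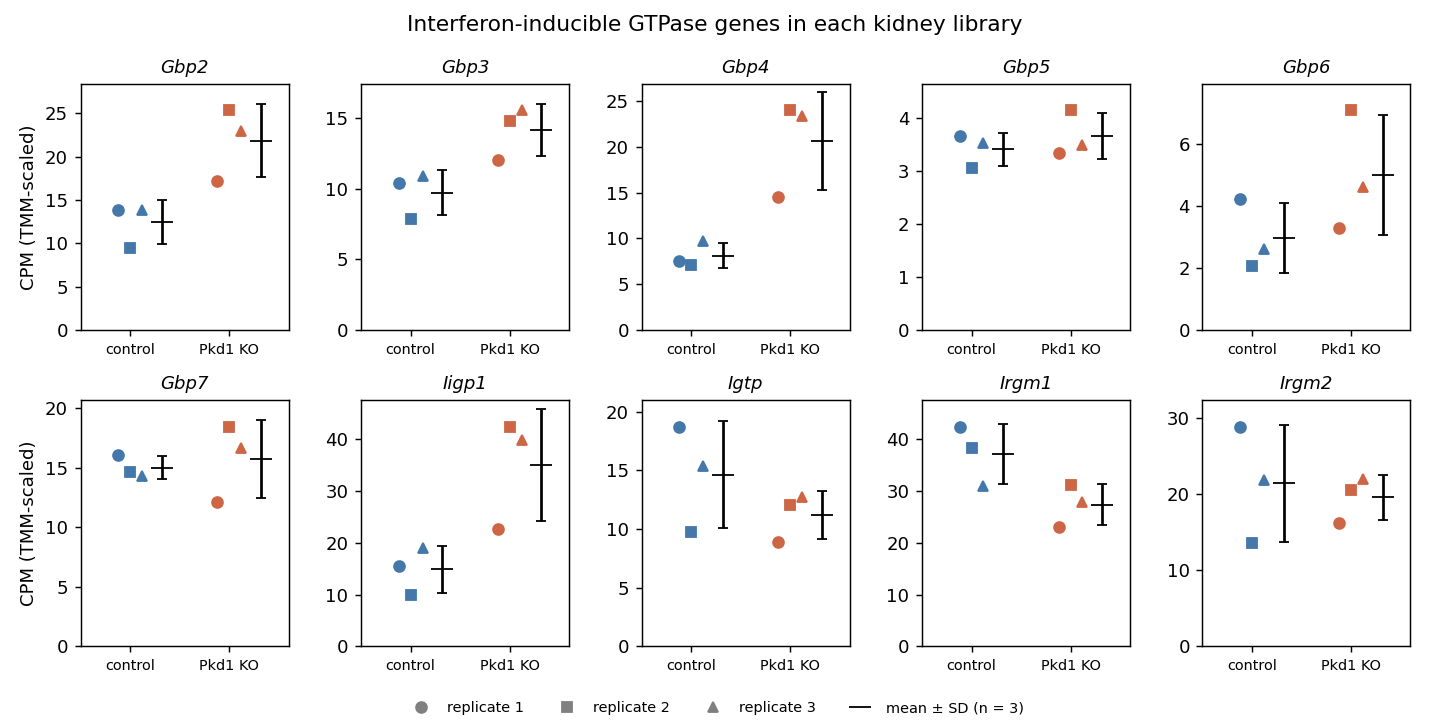
Expression of the 10 GTPase genes in each kidney; the y axis of each panel is CPM scaled by TMM, marker shapes are replicate numbers, and black bars are the mean ± SD of 3 libraries. Gbp2, Gbp3, Gbp4 and Iigp1 show groups that do not overlap, and in all 10 panels replicate 1 is the lowest Pkd1 KO library.

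Iigp1, the effector IRG that disrupts the vacuole around Toxoplasma and Chlamydia, was the second gene by size of change. Controls had 15.6, 9.96 and 19.01 CPM, and Pkd1 KO kidneys 22.6, 42.3 and 39.7 CPM. Pkd1 KO 1 stood close above control 3, while the other two Pkd1 KO libraries were far above every control. The log2 fold change was 1.23 ± 0.29 (edgeR adjusted p = 0.00917), from a mean of 14.8 ± 4.56 to 34.9 ± 10.7 CPM (SD, n = 3). With offsets it was 0.64 and missed the threshold (adjusted p = 0.0548). The call without offsets held with each single library left out.

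The 3 regulators did not rise. Irgm1, which is needed for macrophage control of mycobacteria and for the survival of lymphocytes under interferon gamma, had 42.3, 38.1 and 30.9 CPM in controls and 23.05, 30.99 and 27.9 in knockouts. Only control 3 and Pkd1 KO 2 overlapped, at nearly the same level. The log2 fold change was −0.44 ± 0.17 (adjusted p = 0.05997), with an interval of −0.83 to −0.055 before adjustment. It was called lower without control 2 (−0.46, adjusted p = 0.0497), without control 3 (−0.61, adjusted p = 0.00835), by DESeq2 (−0.47, adjusted p = 0.0417) and with offsets (−0.54, adjusted p = 0.0227).

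Igtp (Irgm3), which sits at the endoplasmic reticulum and lipid droplets, had 18.7, 9.72 and 15.4 CPM in controls and 8.91, 12.1 and 12.7 in knockouts. Control 2 lay inside the Pkd1 KO range and set the overlap. The log2 fold change was −0.38 ± 0.25 (adjusted p = 0.237, interval −0.94 to 0.19), and the edgeR test called it lower without control 2 (−0.64, adjusted p = 0.0155) and with offsets (−0.80, adjusted p = 0.0181). Irgm2, a regulator that limits caspase-11 activation by lipopolysaccharide, had 28.8, 13.5 and 21.8 CPM in controls and 16.2, 20.5 and 21.9 in knockouts. The Pkd1 KO range lay inside that of the controls, and control 2 was again the lowest control (log2 fold change −0.13 ± 0.26, adjusted p = 0.6997, interval −0.71 to 0.46). Its sign depended on the scaling, at 0.03 with upper-quartile factors, which move the median of all genes from 0.03 to 0.19.

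Ratios of 2 genes within a library do not depend on how libraries are scaled. They still carry each library's trend on gene length and GC content. These pairs were chosen after the values were seen and are given without a test. Reads of Iigp1 per read of Irgm1 were 0.368, 0.261 and 0.615 in controls and 0.979, 1.37 and 1.43 in Pkd1 KO kidneys, so the effector went from the less counted to about the equally or more counted of the pair. Gbp4 relative to Gbp7 stood at 0.470, 0.487 and 0.674 in controls and at 1.20, 1.30 and 1.40 in Pkd1 KO kidneys. Gbp2 relative to Gbp5 was 3.81, 3.11 and 3.94 against 5.15, 6.12 and 6.59. In each of the 3 ratios every Pkd1 KO library was above every control, Pkd1 KO 1 included. In the fit with offsets the log2 fold changes were 0.64 for Iigp1 and −0.54 for Irgm1, and 1.19 for Gbp4 and −0.37 for Gbp7. Those of Gbp2 and Gbp5 were 0.35 and 0.39, so with offsets Gbp2 did not rise more than Gbp5.

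**Figure D3:**
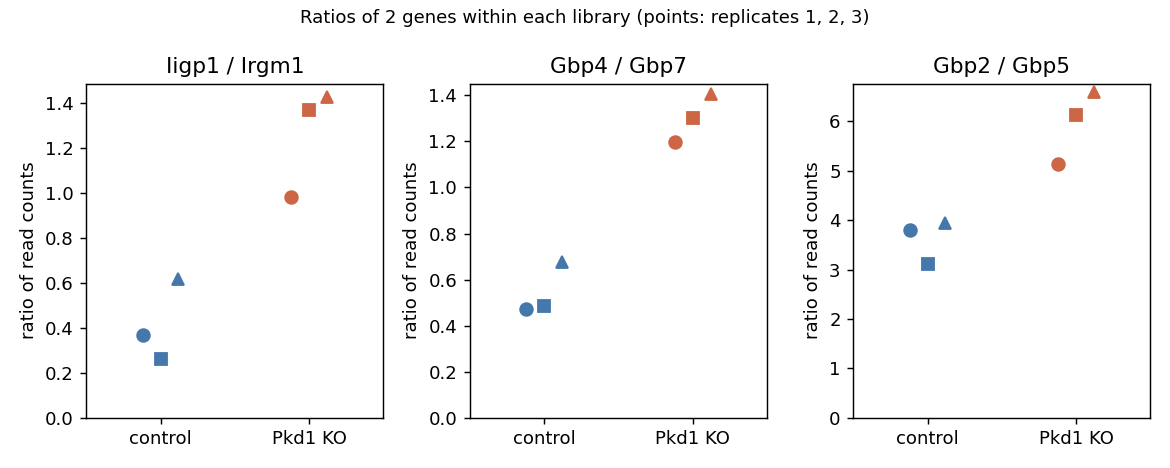
Ratio of read counts of 2 member genes within each library, with points for replicates 1, 2 and 3 from left to right in each group. The y axes are linear and start at 0; for Iigp1 over Irgm1 the controls span 0.261 to 0.615 and the Pkd1 KO libraries 0.979 to 1.43.

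Levels of different genes were compared as CPM per kilobase of exon. In controls the regulators led, with means of 7.23 ± 2.26 for Igtp, 6.39 ± 0.993 for Irgm1 and 5.79 ± 2.08 for Irgm2 (SD, n = 3), followed by Gbp2 at 4.94 ± 1.01. The ranges of these 4 overlapped between libraries, although Igtp was above Irgm2 and Gbp2 in every control. Gbp3 (2.98 ± 0.492), Gbp7 (2.67 ± 0.170) and Iigp1 (2.55 ± 0.784) followed with overlapping ranges, Gbp3 above Iigp1 in every control. Gbp4 (1.08 ± 0.182), Gbp5 (0.514 ± 0.0468) and Gbp6 (0.498 ± 0.190) were lowest, and the last pair changed order between controls. In Pkd1 KO kidneys Gbp2 led at 8.69 ± 1.68, and Iigp1 came second at 5.99 ± 1.85 with an overlapping range, though below Gbp2 in each Pkd1 KO library. The order of Iigp1 changed between libraries against Igtp (5.56 ± 1.01), Irgm2 (5.29 ± 0.802) and Irgm1 (4.70 ± 0.689). Gbp3 (4.33 ± 0.564), Gbp7 (2.80 ± 0.582) and Gbp4 (2.75 ± 0.709) followed, with Gbp6 (0.839 ± 0.326) and Gbp5 (0.551 ± 0.0651) last.

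The members also varied together between kidneys of a group. Pkd1 KO 1 was the lowest Pkd1 KO library for 10 of 10 members, as it was for 35.8% of all tested genes. Control 2 was the lowest control for 8 of 10, and for 40.1% of all tested genes. After each group's mean was taken out, the correlation of a member with the mean of the other 9 over the 6 libraries ran from 0.466 for Irgm1 to 0.977 for Gbp2. All genes of a library share its depth and its mix of cells, so these values are a description. Outside the members, the 5 genes whose deviations were most like the members' mean, among 11500 screened, were Msrb3 (r = 0.999), the lymphocyte GTPase Gimap4 (0.998), the RNA host gene Snhg15 (0.996), the IRG Tgtp2 (0.993) and the Rab GTPase Rab12 (0.992). With 6 libraries and 2 means removed, 47 genes reached 0.95.

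**Figure D4:**
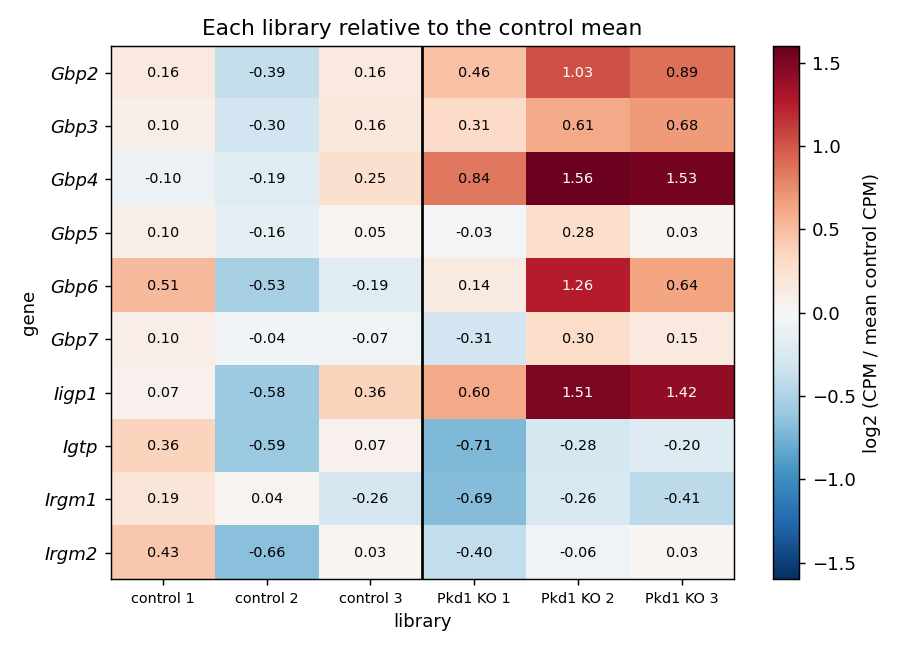
Log2 ratio of each library's CPM to the mean control CPM of the same gene, for the 10 members (rows) and 6 libraries (columns), with the value written in each cell. Pkd1 KO 2 and 3 reach 1.56 and 1.53 for Gbp4, Pkd1 KO 1 is at 0.84, and Igtp and Irgm1 are below 0 in all 3 Pkd1 KO libraries.

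Members had between 116 and 2582 reads in a library. In the 2 runs of control 1, which belong to the same sample, Gbp2 had 14.9 and 11.8 CPM (without TMM factors here) and Gbp6 had 4.11 and 5.04. The ratio of the second run to the first spanned 0.797 to 1.22 over the 10 members. Close copies limit some counts, since the tables list reads that map to several places or genes apart from the gene counts. Of the distinct 50-base stretches in its annotated transcripts (GENCODE M21), Gbp6 shared 70.7% with other genes, 65.0% with the overlapping Gm43302 alone, so its count is uncertain. The shares were 12.7% for Gbp7, whose exons overlap those of Gm43802, 11.8% for Igtp, whose exons overlap those of Irgm2 in that annotation, 7.83% for Irgm2, 7.78% for Gbp4, whose annotated exons overlap those of Gbp8 and Gbp9 on the same strand, and 0.379% to 3.75% for the other 5.

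Beyond the 10 genes, other GTPases of these families also rose. Of 19 tested, the IRG relative Irgq included, 10 were called higher and 1 lower, beside 22.7% and 24.2% of all genes, with a median of 0.96. The largest change was that of Gbp8 (0.486, 0.277 and 0.875 CPM in controls, 1.48, 2.98 and 2.98 CPM in knockouts), at 2.21 ± 0.44 (edgeR adjusted p = 0.00502). Among IRGs, Ifi47 rose from 6.59 ± 2.23 to 18.3 ± 5.12 CPM (1.48 ± 0.30, edgeR adjusted p = 0.00524), and Gm12250 (1.04 ± 0.22), Tgtp2 (0.96 ± 0.29), Gm4951 (1.25 ± 0.27) and Gm4841 (1.32 ± 0.33) rose as well. The remaining increases were Gbp2b (1.67 ± 0.54), a gene under 1 CPM throughout, Gbp9 (0.70 ± 0.18), and the dynamin-like antiviral GTPases Mx1 (0.94 ± 0.25) and Mx2 (1.06 ± 0.28). Irgq, which lacks a working GTPase domain and is not known as an interferon target, fell from 33.1 ± 10.7 to 9.55 ± 0.623 CPM (−1.79 ± 0.23, edgeR adjusted p = 0.00234). The number called higher was 4 without Pkd1 KO 2 and 6 without Pkd1 KO 3, while calls over all genes fell from 4148 to 2340 and 2796. Fold changes moved less: Mx1 was at 0.92 and 0.90, and Gbp9 at 0.63 and 0.61. With offsets 3 were higher (Gbp8, Ifi47 and Mx2) and Irgq stayed lower (−0.96).

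**Figure D5:**
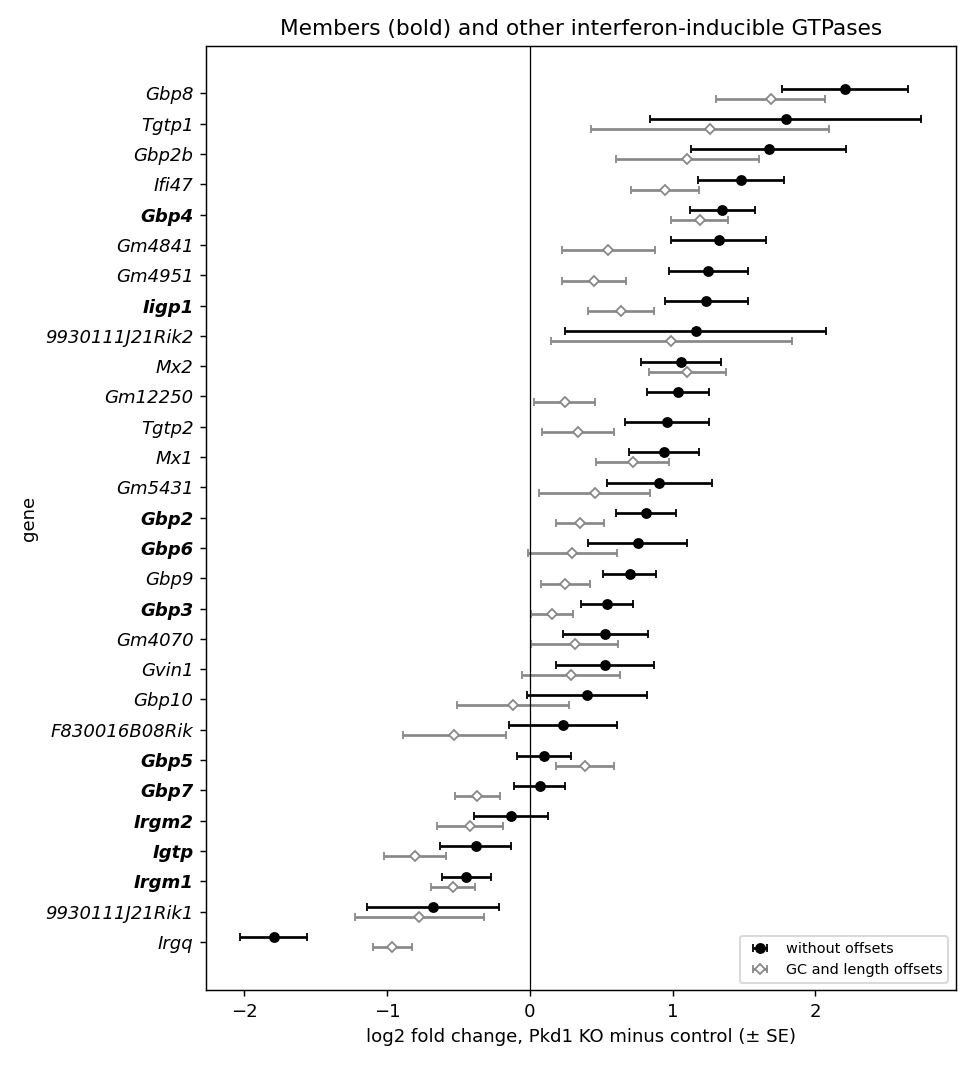
Log2 fold change, Pkd1 KO minus control, with its SE for the 10 members (bold) and 19 other genes of these families tested, Irgq included; filled circles are the fit without offsets and open diamonds the fit with GC and length offsets. Gbp8 is highest at 2.21, the regulators Irgm1, Igtp and Irgm2 lie between −0.44 and −0.13, and Irgq is lowest at −1.79.

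In a group of 6 effector-type IRGs formed after the values were seen (Ifi47, Gm12250, Tgtp1, Tgtp2, Gm4951 and Gm4841), the Pkd1 KO libraries lay above the controls, as they did for Iigp1. This held for 31.2% of all tested genes. The log2 fold changes were 0.96 to 1.79, and 5 of the 6 were called higher, beside 22.7% of all genes. The 1.79 is that of Tgtp1, which had 0 reads in control 2 and was not called (95% interval −0.36 to 3.94). Among the 5 called, Ifi47 was highest at 1.48. With offsets 1 of these 6 was called higher, beside 15.0% of all genes. The other IRG entries of the list were mixed. For 9930111J21Rik2 (1.16, with 0 reads in control 2) and Gm5431 (0.91) the Pkd1 KO libraries also lay above the controls, without a call. 9930111J21Rik1 (−0.68) and F830016B08Rik (0.23) overlapped between groups, and Irgq fell. The 3 regulators overlapped too, with values of −0.44 to −0.13. A difference in response between the 2 kinds of IRG was not tested. Of the GBP genes tested, 3 of 5 on chromosome 3 (Gbp2, Gbp2b and Gbp3) and 3 of 5 on chromosome 5 (Gbp4, Gbp8 and Gbp9) were called higher, beside 22.7% of all genes. With offsets edgeR called 2 higher on chromosome 5 and none on chromosome 3, and the call of Gbp2b ended in 5 of the 6 fits that left out a library (adjusted p of 0.0601 to 0.107).

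Genes of interferon gamma signalling, upstream of the GTPases, were mostly not called. Ifng itself lay below the count filter, with 0, 0 and 2 reads in controls and 9, 14 and 10 reads in Pkd1 KO kidneys. Of 16 tested genes of the pathway, 1 was called higher and 3 lower, beside 22.7% and 24.2% of all genes, with a median of 0.20. Irf1, the transcription factor that carries much of the interferon gamma response to GBP promoters, rose from 13.5, 14.2 and 15.998 CPM to 17.1, 24.4 and 23.9 CPM (0.58 ± 0.175, edgeR adjusted p = 0.0242). The kinases Jak1 (−0.73 ± 0.17, adjusted p = 0.00845) and Jak2 (−0.45 ± 0.14, adjusted p = 0.0294) and the repressor Irf2 (−0.75 ± 0.17, adjusted p = 0.00833) fell. The receptor chains Ifngr1 (0.35, adjusted p = 0.159) and Ifngr2 (0.21, adjusted p = 0.225) were not called. Irf1 lost its call without control 1 (adjusted p = 0.105), Pkd1 KO 2 (0.105) or Pkd1 KO 3 (0.0979), and Jak2 on leaving out any of the 3 Pkd1 KO libraries (0.0816 to 0.111). With offsets 6 genes were higher and 5 lower, beside 15.0% and 19.5% of all genes, and Irf1 (0.81) was among the higher. With upper-quartile scaling 4 were higher and 2 lower.

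Other known targets of interferon gamma moved in both directions, 8 higher and 6 lower of 24 tested (median 0.35). Of all genes 22.7% were higher and 24.2% lower, a share near that of the decreases. The ubiquitin-like modifier Ubd rose most, from 0.680, 0.588 and 0.471 to 2.37, 5.51 and 4.88 CPM (2.87 ± 0.35, edgeR adjusted p = 0.00234), and the immunoproteasome subunit Psmb9 rose by 1.22 ± 0.18 (adjusted p = 0.00266). Among the decreases the peptide transporter Tap2 had the lowest value (−1.49 ± 0.22, adjusted p = 0.00263), and B2m, the most abundant by mean, was not called (0.51 ± 0.22, adjusted p = 0.0841). Increases numbered 5 without control 2, 2 without Pkd1 KO 2 and 3 without Pkd1 KO 3, and decreases 2 or 3 without control 1 or any Pkd1 KO library. Upper-quartile scaling called 10 higher and 2 lower. Type I interferon targets gave 8 higher and 1 lower of 20, beside 22.7% and 24.2% of all genes. Ifi27l2a rose most (2.10 ± 0.29, edgeR adjusted p = 0.00249). Increases among these targets numbered 1 without Pkd1 KO 2, 3 without control 1 and 4 without Pkd1 KO 3. With offsets 4 were higher and 2 lower, and with offsets and the sample number as a block 1 was higher and 2 lower. Of 8 tested genes of type I interferon signalling, Irf9 rose (0.58 ± 0.19, adjusted p = 0.0363) and the kinase Tyk2 fell (−0.79 ± 0.18, adjusted p = 0.00853, 0.14 with offsets). The call of Irf9 ended without control 1 or any single Pkd1 KO library (adjusted p of 0.0633 to 0.13).

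Partners of the GTPases were mixed. IRG and GBP loading uses the ubiquitin-like conjugation machinery of autophagy. The list held 16 genes of loading and of this conjugation, and was not limited to conjugation enzymes. Of these 16, 5 rose and 5 fell (median −0.18), beside 22.7% and 24.2% of all genes. Gabarapl2 (GATE-16), which steers IRGs and GBPs away from the cell's own membranes, rose from 47.3, 37.1 and 73.1 to 115, 117 and 106 CPM (1.10 ± 0.23, edgeR adjusted p = 0.00593), and the ubiquitin ligase Traf6 had the lowest value (−1.14 ± 0.17, adjusted p = 0.00259). Increases numbered 2 without control 1, Pkd1 KO 1 or Pkd1 KO 2 and 3 without Pkd1 KO 3, and decreases 3 without Pkd1 KO 2 or Pkd1 KO 3. Another list held 6 genes of protein prenylation, the kind of lipid modification that Gbp2 and Gbp5 carry. Of these 1 was called higher, 2 lower and 3 not called, beside 22.7% of all genes higher and 24.2% lower. The prenyltransferase subunit Fnta rose (0.74 ± 0.18, edgeR adjusted p = 0.00953) and the methyltransferase Icmt fell (−0.90 ± 0.16, adjusted p = 0.0038). The farnesyltransferase subunit Fntb fell too (−0.70 ± 0.20, adjusted p = 0.0186), a call lost without control 1 or any single Pkd1 KO library (0.0552 to 0.071). Of 8 inflammasome genes linked to GBPs, 7 rose (22.7% of all genes did), led by Casp4 (2.19 ± 0.29, adjusted p = 0.00234) from 1.28, 0.916 and 1.75 to 4.51, 7.396 and 6.03 CPM, and Nlrp3 was not called (−0.32 ± 0.37, adjusted p = 0.504). Without Pkd1 KO 2 the increases numbered 6, and with offsets 4, beside 15.0% of all genes.

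Markers of cells that carry or induce these GTPases moved in the same comparison. The counts of each list are to be read against 22.7% of all genes called higher and 24.2% lower. With offsets these shares were 15.0% and 19.5%. Summed levels of 12 T and NK cell markers ran from 5.95 to 6.89 CPM in controls and from 9.08 to 14.6 in knockouts, with 5 of 12 higher, led by Klrb1c (2.10 ± 0.44), and 3 without control 1, Pkd1 KO 2 or Pkd1 KO 3. With offsets 3 were higher, and the median of the list went from 0.995 to 0.37. The 12 macrophage markers summed to 122 to 161 CPM in controls and 217 to 351 in knockouts, with 8 higher, led by lysozyme Lyz2 (2.70 ± 0.35), and Csf1r lower (−1.01 ± 0.17). Without Pkd1 KO 2 the increases numbered 4, and with offsets 5. The 6 pan-leukocyte markers summed to 67.9 to 83.9 CPM in controls and 86.5 to 114 in knockouts, with 4 higher. The other two, Laptm5 (−0.45) and Lcp1 (−0.29), lay lower with groups apart, were not called by edgeR and were called lower by DESeq2. In all 3 lists Pkd1 KO 1 had the lowest sum of its group, as it had the lowest level of each GTPase gene. It was the lowest Pkd1 KO library for 35.8% of all tested genes. Pkd1 KO 1 was also lowest for the 6 fibroblast markers, which summed to 193 to 238 CPM in controls and 164 to 213 in knockouts. Of these 6, 2 were higher and 3 lower, and with offsets 1 and 1. In the endothelial, tubule and podocyte lists below, another Pkd1 KO library had the lowest sum. The 10 endothelial markers summed to 754 to 843 CPM in controls and 528 to 544 in knockouts, 8 lower and 2 higher. With offsets these counts were 4 and 1, and 1 was higher without control 1 or any single Pkd1 KO library. Epithelial lists were lower: 9 distal nephron markers summed to 4559 to 5769 CPM in controls and 2019 to 2504 in knockouts (8 lower), 10 proximal tubule markers to 9840 to 14811 and 7018 to 8132 (6 lower, and 1 higher whose call ended without control 1, control 3, Pkd1 KO 1 or Pkd1 KO 2 and with offsets), and 5 podocyte markers to 215 to 385 and 164 to 190 (4 lower, 1 without control 1, Pkd1 KO 1 or Pkd1 KO 3 and with offsets). None of these markers was at 0 in any library. The part of these cells in the levels of the GTPases was not tested.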

How the data were processed

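The members and gene lists were chosen with earlier results of these data known. Each run had a deposited table of unnormalized counts of reads by gene. Tools in the submitters' processing notes are STAR 2.6.1e, cutadapt 4.0 and FastQC 0.11.8, with the build GRCm39; an annotation is not given there or in the labels. Per the labels' protocols, poly-A RNA was fragmented and copied with random primers. The column that ignores strand was used (of reads assigned by strand, 49.1% to 50.0% fell in column 1 of the pair). Lines that name no gene held 22.9% to 26.3% of reads and stayed out. Symbols, exon lengths and GC content came from GENCODE M21 (GRCm38), joined by identifier (52073 of 56923). The test was edgeR 4.0.16 (R 4.3.3), quasi-likelihood, filterByExpr, TMM and Benjamini-Hochberg adjustment at 0.05 over all genes. The SE is the absolute log2 fold change over the square root of F. The offset fit used a loess surface (span 0.3) of each library's log2 CPM, relative to the gene's mean, on GC content and log2 exon length. Alternatives used DESeq2 1.42.0, other scaling, no count filter, the first run of control 1 and left-out libraries. Scripts were tested on simulated data. Named genes were the members, Pkd1, any GTPase or interferon gamma signalling gene, and in other lists the called genes with the largest and smallest change and the most abundant one; Fntb, Psmb9, Nlrp3 and the genes in the within-library ratios were chosen after their values were seen. Deviations from group means used log2 (CPM + 0.5) and were taken over genes whose mean log2 CPM reached 2.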

Additional observations from a re-analysis of the deposited data

How the results depend on the processing

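Libraries left out moved the count of members called higher between 2 and 4 and of those called lower between 0 and 2. For all genes the ranges were 2340 to 4877 higher and 2731 to 5441 lower, for the other GTPases 4 to 11 and 1 to 2, for interferon gamma signalling 0 to 2 and 2 to 3, and for its other targets 2 to 8 and 2 to 6. GC and length offsets gave 1 member higher and 2 lower, 2668 genes higher in all (3473 lower), 3 other GTPases higher, 6 signalling genes higher and 5 lower, and 5 other targets higher. Kidneys with the same sample number in the titles had correlations of deviations of 0.041, −0.11 and −0.069. Other pairs ran from −0.11 to 0.12. With 3 kidneys a group these values can neither show nor exclude a pairing. With the sample numbers as a replicate block, 3 members were called higher, Gbp3 losing its call (adjusted p = 0.062 by edgeR). In that fit 3581 genes were higher and 3816 lower, and 3 other targets were higher. The replicate block with the offsets gave 1 member higher and 2 lower, 2422 genes higher (3049 lower), 3 other GTPases higher, 5 signalling genes higher, and 5 other targets higher and 3 lower. DESeq2 called 1 member lower. Upper-quartile scaling gave 4 signalling genes higher and 2 other targets lower, and raised the higher share of all calls from 48.4% to 60.5%. With no count filter 3 signalling genes were higher and Gbp6 was called (0.76, adjusted p = 0.025 by edgeR). Signs turned for uncalled members only: Gbp5 (−0.0047 without control 2, up to 0.161 without Pkd1 KO 1), Gbp7 (−0.012 without control 3, −0.059 without Pkd1 KO 2, up to 0.224 without Pkd1 KO 1, −0.37 with offsets and −0.38 with offsets and block) and Irgm2 (0.0302 with upper-quartile scaling, 0.12 without control 1, down to −0.41 without control 2). The 3 libraries a group and the overlap of the code in the table names with genotype limit every value.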

Other observations

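Tgtp1 and 9930111J21Rik2, members of the IRG family on chromosome 11, had no read in control 2 and many in every other library. Tgtp1 counted 174, 0 and 165 reads in controls and 215, 632 and 605 in Pkd1 KO kidneys, and 9930111J21Rik2 counted 96, 0 and 149 against 175, 252 and 243. Neither was called by edgeR (adjusted p = 0.149 and 0.317). Tgtp2, the close copy of Tgtp1, had 3.98, 2.16 and 3.28 CPM in controls, so control 2 was low there without being at 0. Both genes were chosen after their values were seen.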
